A study of Mus musculus with 4 samples.

Results

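Homologous recombination copies the lost sequence of a broken chromosome from an intact sister, and the Fanconi pathway uses the same machinery to remove crosslinks between DNA strands. Checkpoint kinases sense the damage and delay the cell cycle, nucleases cut the break back to single strands, and BRCA proteins prepare these strands to invade the intact copy. Embryonic stem (ES) cells divide fast, spend much of their cycle copying DNA, and are known for high use of this pathway. The genes described here are 34 members of it, listed by name: checkpoint kinases, homologous recombination genes and Fanconi genes. Of these, 32 had a row of their own among the 22739 gene names of the deposited tables. Atrip and Rad54b stood only in rows that name several genes, so their own levels are not known.

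Poly(A) RNA came from CCE, a mouse ES cell line (129SV strain) kept on gelatin-coated dishes with 15% serum and leukemia inhibitory factor (LIF). Tex10 had been depleted with short hairpin RNA in 2 libraries (shTex10), and 2 libraries were from cells with a hairpin against luciferase, which mice lack (shLuci). The comparison shows how transcript levels differ under Tex10 depletion, and effects of Tex10 and other effects of its hairpin cannot be told apart. Levels are FPKM, read fragments normalised for transcript length and library size, so they can be compared between genes. The tables hold no read totals, so the precision that depth gives to each value is unknown.

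Tex10 itself stood at 11.6 and 13.4 FPKM in shTex10 and at 77.3 and 82.1 FPKM in shLuci, so the libraries matched their labels. Summed over 11 trophectoderm markers, levels were 617 and 610 FPKM in shTex10 and 274 and 283 FPKM in shLuci, and all 9 markers tested were higher. Most of this sum is Krt8 (294 and 284 FPKM in shTex10, 132 and 132 FPKM in shLuci) and Krt18 (234 and 239 FPKM, 107 and 118 FPKM). Of the markers that define trophectoderm, Cdx2 had 1.49 and 1.43 FPKM in shTex10 and 0.332 and 0.460 FPKM in shLuci, while Elf5 did not exceed 0.0800 FPKM in any library. The 12 fibroblast markers summed to 57.1 and 44.7 FPKM in shTex10 and to 57.3 and 46.0 FPKM in shLuci, and of 6 tested 2 were lower (Col1a2 and Fbln1), 0 higher and 4 did not pass. Within this sum Col1a1 had 30.1 and 20.8 FPKM in shTex10 and 18.8 and 12.8 FPKM in shLuci, and Lum did not exceed 0.0689 FPKM. The 10 primitive endoderm markers summed to 8.47 and 8.61 FPKM in shTex10 and to 13.1 and 12.6 FPKM in shLuci, and of 2 tested 1 was lower and 1 higher. The lower sum is that of Lama1, at 2.47 and 2.29 FPKM in shTex10 and 9.17 and 9.22 FPKM in shLuci, whereas Dab2 had 3.04 and 3.54 FPKM in shTex10 and 1.19 and 1.38 FPKM in shLuci, and Ttr was listed at 0 throughout. Of 6 ES cell markers 4 fell, with all 6 markers summing to 3850 and 4236 FPKM in shTex10 and to 4575 and 5033 FPKM in shLuci. Most of this sum is Dppa5a, at 2467 and 2917 FPKM in shTex10 and 2432 and 2999 FPKM in shLuci. The 4 that fell, Pou5f1, Nanog, Zfp42 and Esrrb, stood at 64.3%, 63.3%, 60.6% and 62.7% of shLuci. Sox2, at 83.3%, and Dppa5a did not pass. Over all genes tested, 31.8% were called lower and 19.8% higher, the background for each marker list above. The part of these cell type markers in the results below was not tested. In such bulk RNA, fewer cells of a type and less RNA per cell cannot be told apart.

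Many of the repair transcripts were lower after Tex10 knockdown, and few were higher. Of 32 members, 15 fell, among them Exo1, Chek1, Brca1, Brca2, Bard1, Rad54l and Fanca, 2 rose (Trp53bp1 and Fancm) and 15 did not pass the test (limma, Benjamini-Hochberg adjusted p under 0.05). The shares were 46.9% lower and 6.25% higher among members, beside 31.8% lower and 19.8% higher among all 11883 genes tested. The falls were modest, with the lowest member, Exo1, at 53.7% of its shLuci level. Changes are given on the log2(FPKM + 1) scale, with shLuci subtracted from shTex10, and their median was -0.34 over the members and -0.14 over all genes tested. Relative to the median of all genes, that of the members stood at -0.21, and 22 of 32 members lay below the median gene, as do 50% of genes by definition. All 32 members passed the filter of a mean of at least 1 FPKM with every library above it, and none was let in by 1 group alone. Well expressed genes were called lower more often, in 36.7% of the 8542 genes with a mean of at least 5 FPKM, beside 15 of 29 members (51.7%) at that level.

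Both shTex10 libraries lay below both shLuci libraries in 20 of 32 members and above them in 4, which is the case for 48.1% and 28.3% of all genes tested. Summed over the 32 members, transcripts amounted to 406 and 434 FPKM in shTex10 and to 509 and 562 FPKM in shLuci. Within each group the library numbered 2 had the higher value for 22 of the 32 members (68.8%) in both groups, as did 38.5% of all genes tested. Of the 17 called members, 12 kept their call in each alternative listed in the processing section but 1. The exception was making the sums over all rows, unnamed ones included, equal between libraries, under which 0 members passed (limma), also at an unadjusted p under 0.05, beside 1.99% of all genes called lower and 5.51% called higher. The sums over all rows differed between the shLuci libraries themselves, at 1403759 and 2224872 FPKM, and the median standard error of the members became 0.44 in place of 0.11. An exact two-sided permutation test of a single gene over 2 and 2 libraries cannot go below p = 0.333, so the calls rest on the spread shared across genes.

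**Figure D1:**
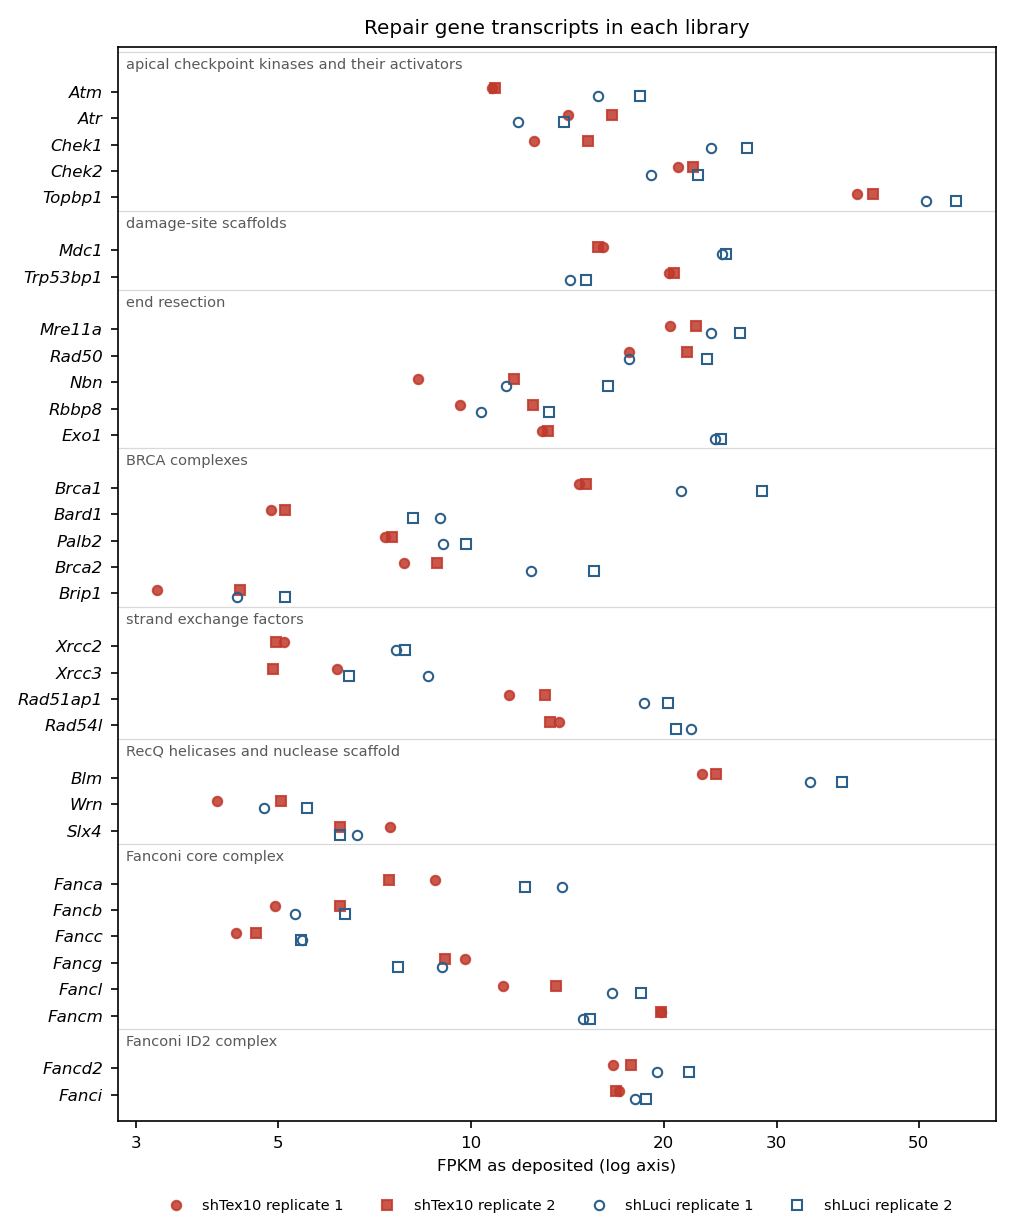
FPKM of the 32 repair genes in each library on a logarithmic axis, grouped by role, with shTex10 (filled) above shLuci (open), circles for replicate 1 and squares for replicate 2. Exo1, Chek1 and Brca1 stand well to the left in shTex10, Trp53bp1 and Fancm to the right, and Rad50, Rbbp8, Chek2 and Fancb overlap.

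Promoter sequence was read for 25 of the 32 members, from RefSeq on build GRCm38.p6, as the 250 bases before each gene's start. No promoter was analysed here for Exo1, Rad50, Nbn, Rbbp8, Xrcc2, Wrn and Fancd2. Because many members fell together, these stretches were searched on both strands for words bound by cell cycle factors. The words were TTTCCCGC, TTTCGCGC, TTTGCCGC and TTTGGCGC for E2F factors, TTTGAA for the CHR element of late cell cycle genes, and CCAAT for NF-Y. None of these words contains or is part of another, and a gene with several starts in the table was counted once if any of them held the word. An E2F word stood in 6 of 25 members (24%), beside 4.15% of the 8652 tested genes and 2.16% of all 27025 genes that have a promoter in the table. The 6 members were Bard1, Brca2, Mdc1 and Topbp1, which fell, and Chek2 and Fancg, which did not pass the test. These are 4 of the 13 fallen members with a promoter (30.8%) and 2 of the 10 that did not pass (20%). For CCAAT the counts were 7 of 13 (53.8%) and 7 of 10 (70%). Whether the words go with the falls was not tested. CCAAT was found in 15 members (60%, beside 41.3% of tested genes and 37.5% of all genes), and TTTGAA in 1, Bard1 (4%, beside 12.3% and 18.3%). A match is a description of letters and not a shown binding site.

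The stretches around the E2F words are shown for all 6 members because the word is found in 4 that fell and in 2 that did not pass, with the word in capitals, written 5′ to 3′ along the gene. They lie at chr1:71103148-71103207 on the minus strand (Bard1), chr5:150522427-150522486 on the plus strand (Brca2), chr17:35841456-35841497 on the plus strand (Mdc1), chr9:103305172-103305231 on the plus strand (Topbp1), chr5:110839805-110839864 on the plus strand (Chek2) and chr4:43010320-43010379 on the minus strand (Fancg), all on GRCm38.p6.
Bard1: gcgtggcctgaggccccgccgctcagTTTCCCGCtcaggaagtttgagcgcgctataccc
Brca2: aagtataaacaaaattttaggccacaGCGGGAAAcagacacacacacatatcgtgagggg
Mdc1: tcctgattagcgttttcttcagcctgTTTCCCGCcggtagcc
Topbp1: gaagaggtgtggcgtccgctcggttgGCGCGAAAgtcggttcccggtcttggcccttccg
Chek2: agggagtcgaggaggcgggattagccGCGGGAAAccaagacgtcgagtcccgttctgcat
Fancg: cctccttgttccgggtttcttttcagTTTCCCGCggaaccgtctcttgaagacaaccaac

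The word TTTCCCGC runs along the gene strand in Bard1, Mdc1 and Fancg and on the opposite strand, as GCGGGAAA, in Brca2 and Chek2. Topbp1 holds the opposite strand of TTTCGCGC. Counted from the RefSeq start, the word begins at position -209 in Bard1, -168 in Brca2, -152 in Chek2, -129 in Topbp1, -52 in Fancg and -16 in Mdc1. Only exact words were searched, so near matches such as cttcccgc in Fancm are not counted. The members that rose, Fancm and Trp53bp1, held none of the 4 exact E2F words in the 250 bases. Their last 120 bases before the start are also shown, since these 2 genes went the other way. CCAAT is in capitals in Fancm, while Trp53bp1 holds no CCAAT in the 250 bases. The stretches lie at chr12:65075483-65075602 on the plus strand (Fancm) and chr2:121271408-121271527 on the minus strand (Trp53bp1), again on GRCm38.p6.
Fancm: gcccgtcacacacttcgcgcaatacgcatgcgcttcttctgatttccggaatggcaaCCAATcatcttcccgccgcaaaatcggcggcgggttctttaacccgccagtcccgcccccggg
Trp53bp1: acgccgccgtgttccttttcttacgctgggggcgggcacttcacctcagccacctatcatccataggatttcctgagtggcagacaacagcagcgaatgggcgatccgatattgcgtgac

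Among the checkpoint genes, 3 of 5 measured members fell, 0 rose and 2 did not pass, beside 31.8% lower and 19.8% higher over all genes. Chek1, the kinase that carries the ATR signal to the cell cycle (mm9 chromosome 9, 36516066 to 36534243 as the files give it), had 12.5 and 15.2 FPKM in shTex10 and 23.7 and 27.0 FPKM in shLuci. Both shTex10 values were well below both shLuci values, which is a log2 change of -0.83 (SE 0.13; adjusted p = 0.00393 by Benjamini-Hochberg, limma). Atm, the kinase that responds to chromosome breaks, had 10.8 and 10.9 FPKM in shTex10 and 15.8 and 18.4 FPKM in shLuci. The groups did not overlap, and Atm fell by 0.60 on the log2 scale (SE 0.11, adjusted p = 0.00598, limma). Topbp1, which switches ATR on, was the most abundant member, at 40.0 and 42.5 FPKM in shTex10 and 51.3 and 57.1 FPKM in shLuci. Its fall was smaller, a log2 change of -0.38 (SE 0.10, adjusted p = 0.0204, limma). Topbp1 lost its call without shTex10 replicate 1 (log2 change -0.34) and without shLuci replicate 2 (-0.31), where the standard error was 0.17. Topbp1 also lost its call under quantile normalization (log2 change -0.17, adjusted p = 0.192, limma) and with the FPKM sums over named genes made equal between libraries (-0.16, adjusted p = 0.187).

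The other kinases of the 2 signalling arms did not pass. Atr, which binds single-stranded DNA through its partner ATRIP, had 14.2 and 16.6 FPKM in shTex10 and 11.9 and 14.0 FPKM in shLuci. The shTex10 values were the higher ones by a narrow margin, and the log2 change was 0.24 (95% interval -0.07 to 0.55, limma adjusted p = 0.163). Atr passed with named-gene sums made equal (log2 change 0.45, adjusted p = 0.027). Chek2, the kinase downstream of ATM, had 21.0 and 22.2 FPKM in shTex10 and 19.1 and 22.7 FPKM in shLuci, and the groups overlapped (log2 change 0.05, 95% interval -0.22 to 0.33). The row that names Atrip together with Trex1 held 12.9 and 12.8 FPKM in shTex10 and 11.9 and 11.5 FPKM in shLuci, and the share of each gene is unknown.

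Transcripts of the scaffold proteins that gather at a break moved in opposite directions. Mdc1, which binds the phosphorylated histone H2AX beside a break, had 16.1 and 15.8 FPKM in shTex10 and 24.6 and 25.0 FPKM in shLuci. Replicates were close and the groups far apart, a log2 change of -0.61 (SE 0.08, limma adjusted p = 0.00286). Trp53bp1, the gene of 53BP1, which holds back end resection and favours end joining over recombination, rose to 20.4 and 20.8 FPKM in shTex10, against 14.3 and 15.1 FPKM in shLuci. Its log2 change of 0.46 was the highest of all members (SE 0.09, limma adjusted p = 0.00812). Tubgcp4, a gene whose row shares this locus, had 6.28 and 6.61 FPKM in shTex10 and 9.23 and 11.1 FPKM in shLuci, with both shTex10 values below both shLuci values.

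End resection, the first step of recombination, starts with the MRE11-RAD50-NBS1 complex and CtIP and is extended by EXO1. Only Exo1 of these 5 genes fell and 0 rose, beside 31.8% lower and 19.8% higher over all genes. Exo1, an exonuclease gene (mm9 chromosome 1, 177810708 to 177843523), had 12.9 and 13.2 FPKM in shTex10 and 24.1 and 24.6 FPKM in shLuci. This was the largest fall among the members, a log2 change of -0.85 (SE 0.09, limma adjusted p = 0.00105). Rad50 had 17.7 and 21.7 FPKM in shTex10 and 17.7 and 23.4 FPKM in shLuci, with replicates farther apart than groups (log2 change -0.05, 95% interval -0.46 to 0.36). Rbbp8, the gene of CtIP, had 9.63 and 12.5 FPKM in shTex10 and 10.4 and 13.2 FPKM in shLuci (log2 change -0.09, 95% interval -0.49 to 0.32), with overlapping groups. The sign of both genes turned with named-gene sums made equal and when single libraries were left out, as listed in the closing section. Mre11a, the nuclease gene of the complex, had 20.4 and 22.4 FPKM in shTex10 and 23.7 and 26.3 FPKM in shLuci (log2 change -0.21, 95% interval -0.46 to 0.04), and its sign turned with named-gene sums made equal (0.0069). Nbn, the gene of NBS1, had 8.28 and 11.7 FPKM in shTex10 and 11.4 and 16.4 FPKM in shLuci. Its groups overlapped, and its log2 change of -0.43 did not pass (95% interval -0.97 to 0.10, limma adjusted p = 0.143). It passed when shTex10 replicate 2 (log2 change -0.66) or shLuci replicate 1 (-0.68) was left out. The standard errors were then 0.17 and 0.18, against 0.22 with all libraries.

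Of the 5 BRCA genes, 4 fell, 0 rose and 1 did not pass, beside 31.8% lower and 19.8% higher over all genes, and the median log2 change was -0.67 (-0.53 after subtracting that of all genes). Brca1, which with BARD1 forms a ubiquitin ligase that favours recombination, had 14.7 and 15.1 FPKM in shTex10 and 21.3 and 28.5 FPKM in shLuci. The shLuci libraries differed from each other, yet both lay above shTex10 (log2 change -0.69, SE 0.15, limma adjusted p = 0.0119). Bard1 had 4.88 and 5.13 FPKM in shTex10 and 8.96 and 8.11 FPKM in shLuci, with no overlap (log2 change -0.67, SE 0.10, adjusted p = 0.00331). Brca2, which works on the single strands before they invade, had 7.87 and 8.85 FPKM in shTex10 and 12.4 and 15.6 FPKM in shLuci (log2 change -0.67, SE 0.13, adjusted p = 0.00901). Relative to shLuci these genes stood close together, Brca1 at 60.0%, Bard1 at 58.6% and Brca2 at 59.8%.

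Palb2, the bridge between BRCA1 and BRCA2, had 7.34 and 7.52 FPKM in shTex10 and 9.06 and 9.82 FPKM in shLuci. Its groups were apart, and its fall was the smallest of those called (log2 change -0.31, SE 0.09, limma adjusted p = 0.0368). This call was lost without any 1 of the libraries, where the standard error was 0.17. The log2 change was -0.29 without shTex10 replicate 1, -0.32 without shTex10 replicate 2, -0.36 without shLuci replicate 1 and -0.25 without shLuci replicate 2. The call was also lost without a filter on low values (limma adjusted p = 0.0587), under median scaling (0.0838) and under quantile normalization (0.0646). With named-gene sums made equal it was lost too (log2 change -0.10, adjusted p = 0.381). Brip1, a helicase gene whose protein binds BRCA1, was the least abundant member, at 3.24 and 4.36 FPKM in shTex10 and 4.31 and 5.13 FPKM in shLuci. It did not pass (log2 change -0.26, 95% interval -0.62 to 0.10, limma), but did without shTex10 replicate 2 (log2 change -0.43).

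Of the genes that help the strand find and invade the intact copy, 3 of 4 fell, 0 rose and 1 did not pass, and the median log2 change was -0.58 (-0.45 after subtracting that of all genes). Rad54l, a motor protein gene that remodels the invading strand, had 13.7 and 13.3 FPKM in shTex10 and 22.0 and 20.9 FPKM in shLuci (log2 change -0.63, SE 0.09, limma adjusted p = 0.0029). Rad51ap1, which stimulates strand invasion, had 11.5 and 13.0 FPKM in shTex10 and 18.6 and 20.3 FPKM in shLuci (log2 change -0.63, SE 0.11, adjusted p = 0.0053). Both were at about the same share of shLuci, 62.9% each, with no overlap between groups. Xrcc2, which acts in strand exchange, had 5.10 and 4.97 FPKM in shTex10 and 7.64 and 7.90 FPKM in shLuci (log2 change -0.54, SE 0.09, adjusted p = 0.00505). Xrcc3, which acts at the same step, had 6.17 and 4.91 FPKM in shTex10 and 8.57 and 6.44 FPKM in shLuci. The shTex10 values were both lower, but the spread within groups was wide and Xrcc3 did not pass (log2 change -0.37, 95% interval -0.77 to 0.03). It did pass without shTex10 replicate 1 (log2 change -0.51) or without shLuci replicate 2 (-0.56). The row that names Rad54b with Fsbp and 1110037F02Rik held 26.8 and 28.7 FPKM in shTex10 and 30.9 and 33.4 FPKM in shLuci, which cannot be divided among the 3 genes.

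Blm, the helicase that takes crossed DNA strands apart without exchange, was the second most abundant member, at 22.9 and 24.2 FPKM in shTex10 and 33.8 and 37.9 FPKM in shLuci. It fell by 0.58 on the log2 scale (SE 0.10, limma adjusted p = 0.00542), with no overlap. Wrn, a helicase of the same RecQ family, had 4.02 and 5.06 FPKM in shTex10 and 4.75 and 5.55 FPKM in shLuci and did not pass (log2 change -0.15, 95% interval -0.48 to 0.17), with a sign that turned with named-gene sums made equal (0.03). Slx4, a scaffold for nucleases that cut branched DNA, had 7.46 and 6.24 FPKM in shTex10 and 6.65 and 6.25 FPKM in shLuci (log2 change 0.07, 95% interval -0.21 to 0.35). Its groups overlapped, and its sign turned without shTex10 replicate 1 (-0.04).

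**Figure D2:**
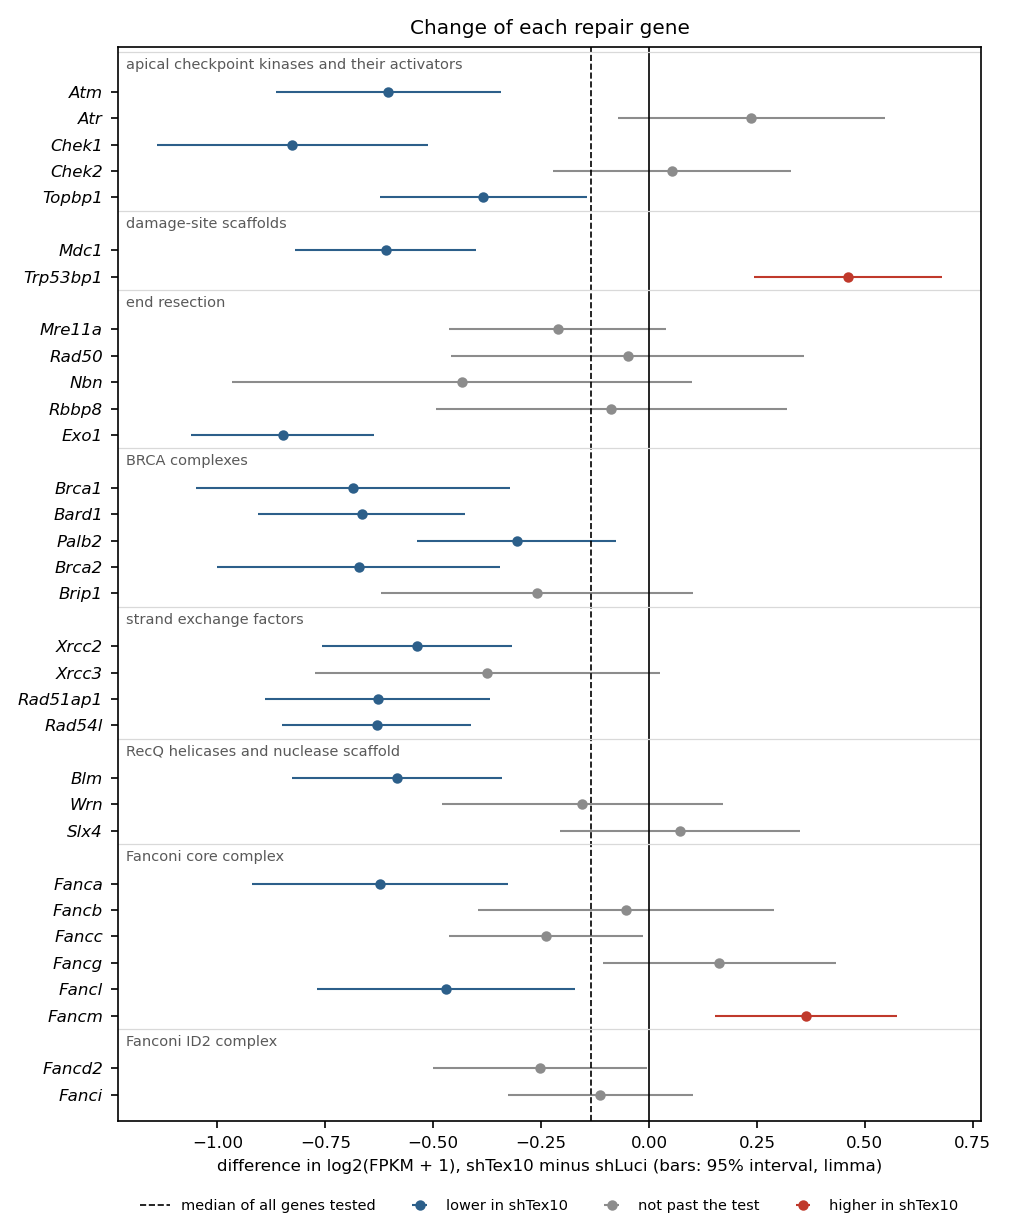
Difference in log2(FPKM + 1), shTex10 minus shLuci, of the 32 repair genes by role, with 95% intervals from limma. The dashed line is the median of all genes tested (-0.14). The falls of the BRCA and strand exchange genes lie between -0.69 and -0.31, while the Fanconi genes lie on both sides of the line.

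The Fanconi genes were mixed. The core complex recognises a crosslink and attaches ubiquitin to the FANCD2-FANCI pair, which then directs the repair. Of 6 core genes among the members, 3 did not pass, 2 fell and 1 rose, beside 31.8% lower and 19.8% higher over all genes. Their median log2 change of -0.15 was level with that of all genes (-0.01 relative to it). Outside the members, the core gene Fance fell (log2 change -0.71, limma adjusted p = 0.0176) and Fancf did not pass (-0.10). Fanca, a subunit of the complex, had 8.79 and 7.44 FPKM in shTex10 and 13.9 and 12.2 FPKM in shLuci, with no overlap (log2 change -0.62, SE 0.12, limma adjusted p = 0.00819). With named-gene sums made equal it missed the threshold (log2 change -0.42, adjusted p = 0.0503). Fancl, the ubiquitin ligase of the complex, had 11.2 and 13.6 FPKM in shTex10 and 16.6 and 18.4 FPKM in shLuci (log2 change -0.47, SE 0.12, adjusted p = 0.0217). The call of Fancl was lost without shTex10 replicate 1 (log2 change -0.34) and without shLuci replicate 2 (-0.40), where the standard error was 0.17. It was also lost under quantile normalization (limma adjusted p = 0.0619) and with named-gene sums made equal (log2 change -0.26, adjusted p = 0.117).

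Fancm, the gene of the motor protein that anchors the core complex to DNA, rose to 19.8 and 19.8 FPKM in shTex10, against 15.0 and 15.4 FPKM in shLuci (mm9 chromosome 12, 66176592 to 66233045). Replicates were nearly identical within groups (log2 change 0.36, SE 0.09, limma adjusted p = 0.016). The size held when a library was left out, at 0.36 without either shTex10 replicate, 0.35 without shLuci replicate 1 and 0.38 without shLuci replicate 2. The call was lost in these fits, where the standard error was 0.17. Fancg had 9.79 and 9.11 FPKM in shTex10 and 9.00 and 7.70 FPKM in shLuci and did not pass (log2 change 0.16, 95% interval -0.11 to 0.43). Fancb, whose gene is on the X chromosome, had 4.95 and 6.25 FPKM in shTex10 and 5.31 and 6.37 FPKM in shLuci (log2 change -0.05, 95% interval -0.40 to 0.29), with a sign that turned under other scalings. Fancc had 4.30 and 4.61 FPKM in shTex10 and 5.45 and 5.43 FPKM in shLuci, apart but short of the threshold (log2 change -0.24, limma adjusted p = 0.0725).

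The central pair of the pathway did not pass. Fancd2 had 16.7 and 17.8 FPKM in shTex10 and 19.5 and 21.9 FPKM in shLuci, at 83.1% of its shLuci level (log2 change -0.25, 95% interval -0.50 to -0.00, limma adjusted p = 0.0812). Fanci had 17.1 and 16.8 FPKM in shTex10 and 18.0 and 18.8 FPKM in shLuci (log2 change -0.11, 95% interval -0.33 to 0.10). Both genes were lower in each shTex10 library by small margins, and the sign of Fanci turned under quantile normalization (0.0009) and with named-gene sums made equal (0.10). Their intervals exclude falls as deep as that of Exo1, though the differences between genes were not tested.

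Several of these genes overlap others, which matters where reads cannot be assigned to a strand. Of the 32 members, 8 share their locus with the row of another gene, and whether strand was used in assigning reads is not given in the sources used here. Besides Tubgcp4, given above, Rad54l shares its locus with Lrrc41 (15.7 and 14.1 FPKM in shTex10, 18.5 and 17.0 FPKM in shLuci) and Fanca with Zfp276 (3.34 and 3.05 FPKM in shTex10, 3.62 and 3.26 FPKM in shLuci). Fancl shares its locus with Vrk2 (5.74 and 5.98 FPKM in shTex10, 5.96 and 6.70 FPKM in shLuci), and Xrcc3 with Klc1 (15.9 and 12.3 FPKM in shTex10, 16.8 and 13.9 FPKM in shLuci). Each of these partners lay closer to its shLuci level than the member did. Fancd2 shares its locus with Emc3, Fanci with Polg, and Atr with 1700065D16Rik, which did not exceed 0.899 FPKM.

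Other genes of the pathway, taken from a list that holds no member, are given beside the shares over all genes, 31.8% lower and 19.8% higher, the background for each list that follows as well. Of 51 tested of 52 listed, 22 fell (43.1%), 2 rose and 27 did not pass, and the median log2 change was -0.29 (-0.15 after subtracting that of all genes). Rad51c, another strand exchange gene, had 2.34 and 2.44 FPKM in shTex10 and 5.20 and 5.05 FPKM in shLuci, less than any fallen member relative to its shLuci level. H2afx, the gene of the histone H2AX, had 115 and 83.3 FPKM in shTex10 and 222 and 159 FPKM in shLuci. Rpa2, a subunit of the protein that coats single strands, had 62.4 and 71.2 FPKM in shTex10 and 110 and 123 FPKM in shLuci. Rev1, a polymerase gene for copying past damage, rose to 33.95 and 37.0 FPKM in shTex10, against 19.3 and 21.5 FPKM in shLuci.

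Among 14 other checkpoint genes, 8 fell, 0 rose and 6 did not pass, at a median log2 change of -0.44. The genes named here and in the next paragraphs as fallen or risen passed the same test over all genes. Cdc25a, the phosphatase gene that CHK1 restrains, had 15.2 and 14.8 FPKM in shTex10 and 31.2 and 33.1 FPKM in shLuci (log2 change -1.05). Clspn, the gene of claspin, which brings CHK1 to ATR, had 8.21 and 9.68 FPKM in shTex10 and 14.8 and 16.2 FPKM in shLuci. Timeless and Tipin, partners at the replication fork, fell by 0.58 and 0.61 on the log2 scale.

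In the routes that repair breaks or bases without recombination, directions were mixed for end joining and excision repair but not for mismatch repair. Of 14 end joining genes, 9 did not pass, 4 fell and 1 rose, and their median of -0.14 equalled that of all genes. Parp1, Xrcc6 and Xrcc5 (the last 2 encode Ku) fell by 0.86, 0.80 and 0.73 on the log2 scale, whereas Nhej1, which bridges the ends, rose to 13.9 and 15.2 FPKM in shTex10, against 5.99 and 7.28 FPKM in shLuci. Of 7 mismatch repair genes 3 fell (42.9%), Msh6 and Pms1 among them, 0 rose and 4 did not pass. All 7 log2 changes were negative, at a median of -0.30. Of 23 excision repair genes 10 fell (43.5%), 3 rose (13%) and 10 did not pass, at a median log2 change of -0.14. Ercc5, a nuclease gene of nucleotide excision repair, rose to 29.9 and 32.6 FPKM in shTex10, against 12.3 and 13.5 FPKM in shLuci, and Xrcc1, a scaffold of base excision repair, to 51.7 and 48.4 FPKM, against 29.5 and 29.3 FPKM. Ung and Neil3, DNA glycosylase genes, fell by 0.94 and 0.72 on the log2 scale.

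Cell cycle genes were lower in shTex10 too, with medians below that of the members. Of 28 S phase and replication genes 21 fell, 0 rose and 7 did not pass (median log2 change -0.66), and of 19 tested G2 and mitosis genes 15 fell, 0 rose and 4 did not pass (median -0.56). Their sums were 1697 and 1690 FPKM in shTex10 and 2698 and 2732 FPKM in shLuci for the S phase list, and 1020 and 1092 FPKM in shTex10 and 1587 and 1700 FPKM in shLuci for the G2 list. Ccne1, the gene of cyclin E1, had 26.5 and 25.1 FPKM in shTex10 and 87.5 and 85.3 FPKM in shLuci. Gins2, Mcm10 and Cdc6, genes that act at replication origins, fell by 1.46, 1.13 and 1.10 on the log2 scale, and Top2a, Aurkb, Mybl2 and Plk1 by 1.18, 1.11, 1.06 and 1.03. Recombination genes are known to be transcribed mainly in S and G2 phase, and the part of cell cycle position in the falls of the members was not tested.

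**Figure D3:**
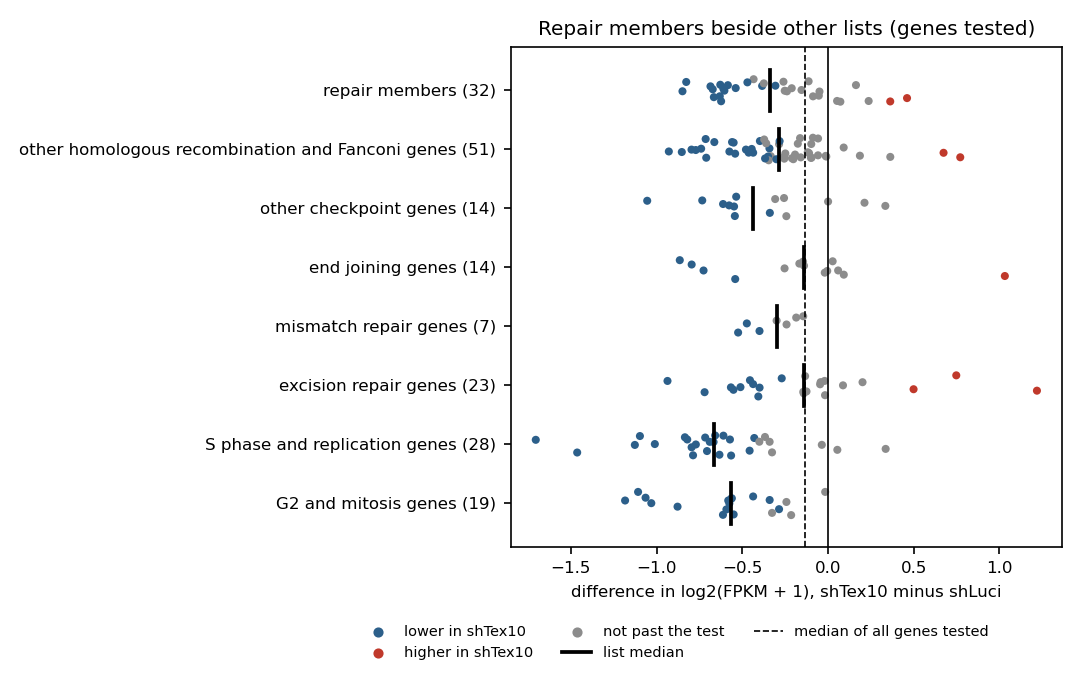
Difference in log2(FPKM + 1), shTex10 minus shLuci, of each tested gene in the repair members and 7 other lists (number tested in parentheses), coloured by call, with a black bar at each list's median and a dashed line at the median of all genes tested. Members centre at -0.34, between the end joining genes at -0.14 and the S phase genes at -0.66.

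The scaling of the libraries set how deep the falls were. Making the named-gene sums equal shifted the median of all genes by 0.20 on the log2 scale, and 11 members were then called lower and 3 higher, beside 16% and 27.2% of all genes. Relative to the median of all genes the members' median was -0.19 there, against -0.21 as deposited. The log2 change of Atm was -0.39 there, of Mdc1 -0.39, of Xrcc2 -0.34, of Blm -0.36, of Rad51ap1 -0.41, of Rad54l -0.42 and of Fancm 0.58, each still past the threshold. Exo1 and Chek1 remained the deepest falls, at -0.63 and -0.61. Median scaling gave 14 members lower and 2 higher, beside 26.8% and 22% of all genes, and quantile normalization 12 lower and 2 higher, beside 24.5% and 20.2%. The sign of every one of the 17 called members was the same in all 16 alternatives. For changes of filter, eBayes option, block or top row alone this was fixed, since the log2 change stays the same.

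**Figure D4:**
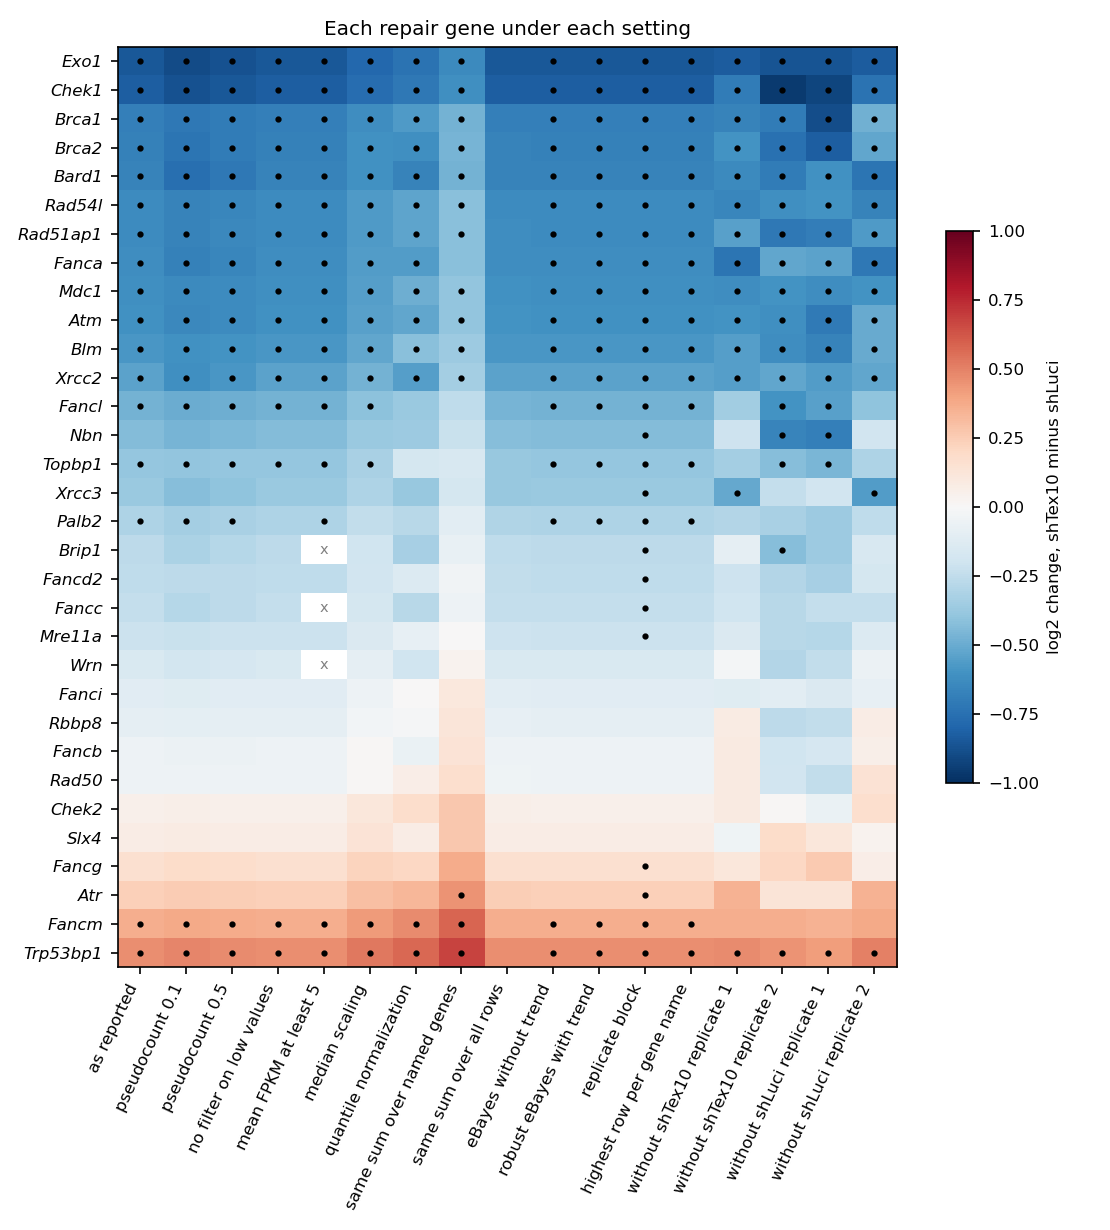
Log2 change, shTex10 minus shLuci, of each repair gene (rows, ordered by the reported change) under each setting (columns), blue for lower and red for higher in shTex10, with a dot where the Benjamini-Hochberg adjusted p is under 0.05 and an x where the gene was filtered out. The upper 17 rows stay blue in all columns, and the column for equal sums over all rows has no dots.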

How the data were processed

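Poly(A)-selected RNA of 4 libraries was sequenced on an Illumina HiSeq with single-end reads of 100 bases, per the labels' protocols. The values are FPKM deposited by the authors, 1 table per library. Build mm9, Cufflinks 2.1.1, TopHat2 2.0.10 and Bowtie2 2.1.0 stand in the submitters' processing notes. Options, annotation and strand handling are not given in the sources. The 7329 unnamed rows stayed out of the test, because their share of summed FPKM varied (70.8% and 68.8% in shTex10, 56.3% and 71.6% in shLuci). Rows that share a name were summed. Genes with a mean of at least 1 FPKM (11883) were fitted as log2(FPKM + 1) by limma 3.58.1 under R 4.3.3 (eBayes with trend, no block, Benjamini-Hochberg adjustment over all genes tested, threshold 0.05). The pseudocount understates changes of low genes. The fit was tested on simulated data.

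Each fit was repeated with a pseudocount of 0.1 or 0.5, without a filter, with a mean of at least 5 FPKM, after median scaling, quantile normalization or equal sums over named genes or all rows, with eBayes untrended or robust, with a block for the replicate number, with the top row of each name, and without each library. With 1 library left in a group, it is assumed to vary like the other group. The members' median standard error was then 0.17, in place of 0.11, and differed little between genes. A call kept, gained or lost there therefore does not show which library a gene depends on. These fits rest on a spread shared by nearly all genes, so a call kept there was not kept under a stricter test. Members and lists were chosen with earlier results of these data known. Named genes were Tex10, all members, and in each other list the up to 4 called genes with the largest change. The genes of overlapping rows, the cell type markers given with values, and Fance and Fancf were named besides these. Some genes that the rule would name are not reported here. The series calls its samples biological replicates and says nothing of separate cultures, so the spread behind each p-value, that between these samples, may be technical.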

Additional observations from a re-analysis of the deposited data

How the results depend on the processing

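Under the 16 alternatives, 439 of 509 member values kept their sign and their side of the threshold, 38 lost a call, 14 gained one and 18 turned sign, the last all of genes that did not pass. The count of 15 members called lower ran from 13 to 16 when each library was left out, and the count of 2 called higher was 1 in each case. Of all genes, 5419 to 5733 were called there, beside 6129. With equal sums over all rows 892 genes were called, and 0 members lower and 0 higher. The members' median log2 change was -0.13 with equal sums over named genes. When each library was left out, that median ran from -0.37 to -0.25, and the median of all genes tested from -0.14 to -0.12. Relative to the median of all genes, that of the members then ran from -0.23 to -0.11. With the replicate number as a block, 21 members were lower and 4 higher, beside 48% and 27% of all genes, and 8919 genes were called. Atr, Mre11a, Nbn, Brip1, Xrcc3, Fancc, Fancg and Fancd2 gained a call there. Deviations from the group means correlated at 0.331 between libraries of the same number, and nothing in the labels pairs them.

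Equal sums over named genes turned the sign of Mre11a (0.0069), Rad50 (0.17), Rbbp8 (0.12), Wrn (0.034), Fancb (0.14) and Fanci (0.10). Quantile normalization turned Rad50 (0.067) and Fanci (0.0009), and median scaling Rad50 (0.0137) and Fancb (0.0098). Leaving out each library gave ranges that cross 0 for Chek2 (-0.0637 to 0.17), Rad50 (-0.24 to 0.14), Rbbp8 (-0.26 to 0.084), Slx4 (-0.041 to 0.18) and Fancb (-0.20 to 0.089). The cause was not tested. FPKM keep no counts, so the limit that depth sets is unknown.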
